A study of Mus musculus with 7 samples.

Results

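The Schlafen genes form a vertebrate family of growth-regulatory and antiviral proteins, and 7 mouse members were followed here in subcutaneous Lewis lung carcinoma tumours: Slfn1, Slfn2, Slfn3, Slfn4, Slfn5, Slfn8 and Slfn9. Members were taken by matching the Ensembl identifier of each row to these symbols, which gave 7 of the 32212 gene rows. Another 4 rows carry a Schlafen symbol (Slfn10-ps, Slfn14, Slfn5os and Slfnl1) and are described after the members. Lewis lung carcinoma (LLC) is a transplantable lung cancer line of C57BL/6 origin. In the study, wild-type C57BL/6J mice aged 6 weeks were given LLC cells under the skin of the axilla, were allotted to groups after 3 days, and had their tumours taken on day 22 after modelling, given elsewhere in the record as day 21 of treatment. The control group comprised 4 libraries from tumours of mice listed with no treatment, and the ZQD group comprised 3 libraries from tumours of mice given Ze-qi decoction, a herbal preparation, at the high dose of 42.67 g/kg. The protocol names 8 mice per group but does not say that each library came from a separate mouse, so the p-values measure the spread between these libraries, which may in part be technical. The RNA came from whole tumour tissue, although the samples are labelled as tumour cells, so a lower level from fewer cells of a type and a lower level from less RNA per cell cannot be told apart.

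As background, mouse Schlafen proteins fall into size classes that share an amino-terminal domain. The short class (Slfn1, Slfn2) and the intermediate class (Slfn3, Slfn4) were first described for their regulation during thymocyte development and T cell activation. The long class, of which Slfn5, Slfn8 and Slfn9 are followed here, carries in addition a helicase-like carboxy-terminal region. Several family members are induced by type I interferon, and some long and short members bind or cleave transfer RNA. The family name comes from the German verb for sleep, after the growth arrest that Slfn1 causes in T cells.

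All 7 members lie in one cluster on mouse chromosome 11. The RefSeq order of the Schlafen genes is Slfn5os, Slfn5, Slfn9, Slfn8, Slfn10-ps, Slfn2, Slfn1, Slfn4, Slfn3 and Slfn14. Among the 7 members the long ones thus sit together at one side and the short and intermediate ones at the other. The 250 bases before each RefSeq start (GRCm38.p6) were searched on both strands for short motifs, and the stretches around the matches are printed. They divide the members the same way, which for the second set follows from how its letters were chosen. The first set holds the interferon response core, GAAA followed after any 2 bases by GAAA, the letters at the heart of the element bound by interferon regulatory factors. Capitals mark the match, and each sequence reads 5′ to 3′ on the strand of its gene. They lie at chr11:82951927-82951976 on the plus strand for Slfn5, chr11:83020829-83020878 on the minus strand for Slfn8 and chr11:82991846-82991895 on the minus strand for Slfn9.
Slfn5: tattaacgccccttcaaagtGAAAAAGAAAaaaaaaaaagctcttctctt
Slfn8: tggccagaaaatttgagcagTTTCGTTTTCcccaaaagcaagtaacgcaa
Slfn9: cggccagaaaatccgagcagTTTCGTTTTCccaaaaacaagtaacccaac

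The interferon response core was found in the 3 long members and in none of the other 4. The match ended at position -146 from the start in Slfn5, at -39 in Slfn8 (counted from the start nearer to it of the 2 RefSeq starts of that gene) and at -36 in Slfn9. Among 32851 promoter windows of the same length, 978 (2.98%) held it. The windows of Slfn8 and Slfn9 were identical at 206 of 250 positions (82.4%), whereas the other pairs of members matched at 47.2% to 56.8% of positions. The second set holds CAGGAAGT, a core bound by ETS family factors, whose letters were chosen after the windows had been read. It lies at chr11:83116726-83116773 for Slfn1, chr11:83065037-83065084 for Slfn2, chr11:83191268-83191315 for Slfn3 and chr11:83175093-83175140 for Slfn4, all printed on the plus strand, where the capitals show the match as its reverse complement.
Slfn1: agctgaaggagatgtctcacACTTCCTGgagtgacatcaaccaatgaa
Slfn2: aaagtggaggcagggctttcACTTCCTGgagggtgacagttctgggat
Slfn3: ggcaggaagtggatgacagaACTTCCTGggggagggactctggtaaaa
Slfn4: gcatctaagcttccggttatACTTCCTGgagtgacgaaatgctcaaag

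The ETS core was found in the 4 short and intermediate members and in none of the long ones. Among all promoters 884 windows (2.69%) held it. Because its letters were chosen from these same windows, that share cannot show whether the split is unusual. Slfn3 held it at 2 places. The looser interferon letters AAANNGAAA, which overlap every match of the full core and occurred in 3079 windows (9.37%), were also present in Slfn1 and Slfn4. The STAT core TTCNNNGAA, present in 2306 windows (7.02%), was found in no member, which says only that these letters are not in these windows. For Slfn1 the RefSeq start did not coincide with the opening of an annotated GENCODE transcript. A match describes letters and was not tested as a binding site.

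**Figure D1:**
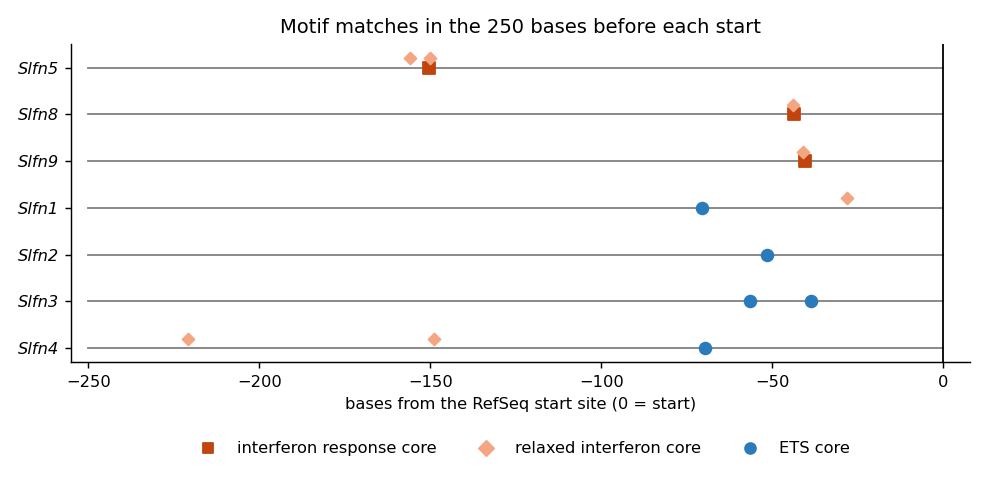
Position of each motif match (x axis, bases from the RefSeq start, 0 is the start) in the 250 bases before the start of the 7 members (rows). Squares mark the interferon response core, diamonds AAANNGAAA and circles CAGGAAGT. Squares lie only in the rows of Slfn5, Slfn8 and Slfn9 and circles only in those of Slfn1, Slfn2, Slfn3 and Slfn4. The letters behind the circles were chosen after the windows had been read.

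Library totals of reads counted to genes came from the gene counts or, for libraries without them, were estimated from the FPKM. They were 32065288 to 49914394 reads in the controls and 34765330 to 38673663 in the ZQD group. An exact two-sided permutation test gave p = 0.543, where the smallest p this design allows is 0.0286. Levels are given as FPKM, fragments scaled to the length of the gene and the total of the library, so they can be compared between genes. The mitochondrially encoded genes took 5.18% to 7.96% of reads in the controls and 8.78% to 11.1% in the ZQD libraries (exact permutation p = 0.0286), which lowers the FPKM of all other genes in the ZQD group. ZQD 2 stood apart with the highest summed markers of neutrophils (144.3 FPKM against 39.96 to 76.0 in the controls), fibroblasts (145.5 against 9.16 to 75.1) and platelets and erythroid cells (414.4 against 67.9 to 242.9), and control 1 with the highest skeletal muscle markers (24.95 FPKM against 2.02 to 8.45 in the other libraries). Markers of monocytes and macrophages summed to 766.4 to 1100.5 FPKM in the controls and 1124.7 to 1444.4 in the ZQD libraries. Of the list 10 of 11 were higher on average, where 58.2% of all tested genes were lower. In 3 of the 11 (Lyz2, C1qb and Mrc1) all ZQD libraries lay above all controls, as in 5.35% of all genes. Cd68 and C1qa, also large parts of the sum, overlapped between the groups. None of the 11 was at 0 in every library, and T cell markers summed to 14.9 to 23.4 against 20.9 to 27.1. The part of these cell markers in the Schlafen values was not tested. Of the epithelial list Vim gave nearly all the signal, and Cdh1 was at 1.00 ± 0.322 FPKM (SD, n = 4) in the controls and 0.777 ± 0.184 (SD, n = 3) in the ZQD group.

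All 7 members were expressed in every library and passed the filter on low values. Averaged over the 7 libraries, Slfn2 was the most abundant at 52.7 FPKM, followed by Slfn9 at 40.5 and Slfn8 at 28.6. Slfn5 at 11.3, Slfn1 at 9.89, Slfn4 at 8.91 and Slfn3 at 5.63 FPKM formed a lower tier. The libraries' ranges of neighbours in this order overlapped except between Slfn8 and Slfn5. Within single libraries Slfn9 exceeded Slfn8 in 7 of 7 and Slfn2 exceeded Slfn9 in 6 of 7, so the order of these genes largely held within libraries although their ranges met. Slfn5 exceeded Slfn1 in 4 of 7 libraries, namely in all 4 controls, and Slfn1 exceeded Slfn5 in the 3 ZQD libraries. In ZQD 1 (Slfn1 12.19, Slfn5 12.07 FPKM) and ZQD 3 (8.80 and 8.35) their ranges from counting error overlapped. In ZQD 2 and the controls these ranges were apart. Neither gene differed between the groups past the threshold (limma adjusted p = 0.376 for Slfn1 and 0.480 for Slfn5). No share over other gene pairs stands beside this order, and the switch was not tested.

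The comparison of ZQD with control tumours gave no Schlafen gene past the threshold. By limma on log2(FPKM + 0.5), 0 of 7 members had a Benjamini-Hochberg adjusted p under 0.05, and 0 of all 14838 genes tested had one (0%). The smallest adjusted p of any gene was 0.0780. The long members and Slfn3 were lower on average in ZQD tumours and Slfn1, Slfn2 and Slfn4 higher, a split of 4 lower and 3 higher, where 58.2% of all tested genes were lower. One member, Slfn8, was lower at an unadjusted p under 0.05 and 0 were higher, against 10.3% of all genes lower and 5.21% higher. The median log2 fold change of the 7 members was -0.20, and that of all tested genes was -0.043. The edgeR quasi-likelihood test on rebuilt reads also called 0 members, as it called 0 of 14832 genes (0%), with 1 member at an unadjusted p under 0.05. DESeq2 called 0 members and 504 of 13099 genes (3.85%), with 2 members, Slfn8 and Slfn1, at an unadjusted p under 0.05. In no member did all ZQD libraries lie on one side of all controls, whereas 9.84% of genes had all ZQD libraries below and 5.35% all above.

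**Figure D2:**
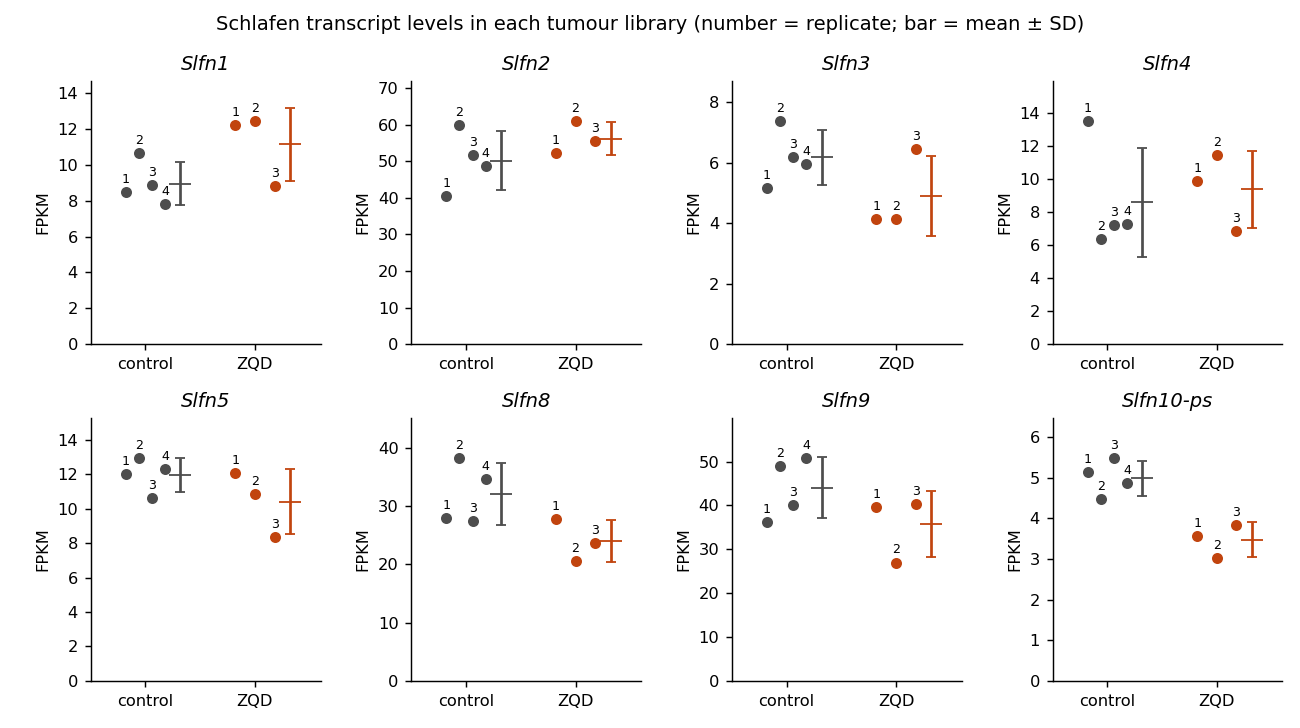
FPKM (y axis, linear from 0) of each Schlafen gene in the 4 control and 3 ZQD libraries. Points are libraries labelled with their replicate number, and bars are the group mean ± SD. The groups overlap in each of the 7 members and are apart in the pseudogene Slfn10-ps, where the ZQD libraries reach 3.84 FPKM at most and the controls 4.48 at least.

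Slfn8 is a long member, a mouse relative of the human gene whose product arrests translation in cells under DNA damage. It was at 27.9, 38.3, 27.5 and 34.7 FPKM in control 1 to control 4 and at 27.8, 20.5 and 23.6 FPKM in ZQD 1 to ZQD 3. ZQD 2 and ZQD 3 lay below every control, while ZQD 1 lay between the 2 lowest controls, so the groups met at their edge. The means were 32.1 ± 5.28 FPKM (SD, n = 4) in the controls and 24.0 ± 3.66 (SD, n = 3) in the ZQD group. The log2 fold change was -0.41 (SE 0.148, 95% interval -0.75 to -0.071, limma adjusted p = 0.258, unadjusted p = 0.0233). Leaving out 1 library moved it between -0.52 (without ZQD 1) and -0.30 (without ZQD 2).

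Slfn9, the neighbour of Slfn8 in the cluster and in sequence, was at 36.3, 48.9, 40.2 and 50.8 FPKM in the controls and at 39.7, 27.0 and 40.3 FPKM in the ZQD libraries. Only ZQD 2 lay below the controls, and ZQD 1 and ZQD 3 fell within their range. The mean was 44.05 ± 6.93 FPKM (SD, n = 4) against 35.7 ± 7.53 (SD, n = 3), and the log2 fold change was -0.31 (SE 0.172, 95% interval -0.70 to 0.082, limma adjusted p = 0.416). Without ZQD 2 the log2 fold change was -0.12, so that library carried most of the difference. Slfn8 and Slfn9 share transcript sequence: 9.30% of the 50-base windows of Slfn8 occur in Slfn9 and 10.1% in Slfn10-ps, which at 100 bases drops to 1.17% and 2.45%. Reads from the shared stretches could be split between these genes or discarded, and how such reads were counted is not stated in any label or header read here.

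Slfn5 is the long member best known as an interferon-induced gene. It was at 11.99, 12.96, 10.6 and 12.3 FPKM in the controls and at 12.1, 10.8 and 8.35 FPKM in the ZQD libraries. ZQD 1 and ZQD 2 lay among the controls and ZQD 3 below them. The log2 fold change was -0.20 (SE 0.130, 95% interval -0.50 to 0.094, limma adjusted p = 0.480), and it shrank to -0.060 without ZQD 3. Slfn5 thus varied little between libraries: its coefficient of variation over the 7 was 13.6%.

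Slfn2, a short member whose loss in mice lets resting T cells leave quiescence and die, was the most abundant Schlafen transcript. It was at 40.4, 59.9, 51.6 and 48.7 FPKM in the controls and at 52.1, 60.9 and 55.5 FPKM in the ZQD libraries. ZQD 1 and ZQD 3 lay in the upper part of the control range, and ZQD 2 lay just above control 2, the highest control. The means were 50.2 ± 8.03 FPKM (SD, n = 4) and 56.2 ± 4.44 (SD, n = 3), and the log2 fold change was 0.17 (SE 0.131, 95% interval -0.13 to 0.47, limma adjusted p = 0.551). It ranged from 0.075 without control 1 to 0.26 when another library was left out.

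Slfn1, the founding short member, was at 8.49, 10.6, 8.87 and 7.79 FPKM in the controls and at 12.2, 12.4 and 8.80 FPKM in the ZQD libraries. ZQD 1 and ZQD 2 exceeded every control, and ZQD 3 sat in the middle of them. The log2 fold change of 0.29 (SE 0.147, 95% interval -0.041 to 0.63) had a limma adjusted p of 0.376, and it was 0.45 without ZQD 3.

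Slfn3 and Slfn4 are intermediate members, and Slfn4 is known from myeloid cells, where it is regulated during macrophage activation. Slfn3 was at 5.17, 7.37, 6.20 and 5.94 FPKM in the controls and at 4.15, 4.15 and 6.43 FPKM in the ZQD libraries. ZQD 1 and ZQD 2 lay below every control and ZQD 3 above all but 1. Its log2 fold change was -0.32 (SE 0.170, 95% interval -0.71 to 0.070, limma adjusted p = 0.402), and it was -0.51 without ZQD 3 and -0.22 without ZQD 1 or ZQD 2. Slfn4 was at 13.5, 6.36, 7.199 and 7.25 FPKM in the controls and at 9.85, 11.4 and 6.83 FPKM in the ZQD libraries. Control 1 was the highest library of all and control 2 the lowest, so the ZQD values fell wholly inside the control range. Slfn4 varied most of the 7, with a coefficient of variation of 30.6%, and its log2 fold change of 0.15 (SE 0.260, 95% interval -0.44 to 0.75, limma adjusted p = 0.813) was 0.38 without control 1 and 0.0013 without ZQD 2. Slfn3 and Slfn4 share sequence: 7.39% of the 50-base windows of Slfn3 occur in another Schlafen gene, and 0 do at 100 bases. Counted over any other gene, Schlafen or not, these figures were 15.99% and 2.92%.

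Read depth did not limit these values. The lowest read number behind any member in any library was 522, for Slfn3, and the highest was 11943, for Slfn9. Counting error at the lowest read number of each gene was 1.27% to 4.38%, well under the 13.3% to 30.6% by which members varied over the 7 libraries. Counting error covers sampling of reads only, since PCR copies are not independent molecules.

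**Figure D3:**
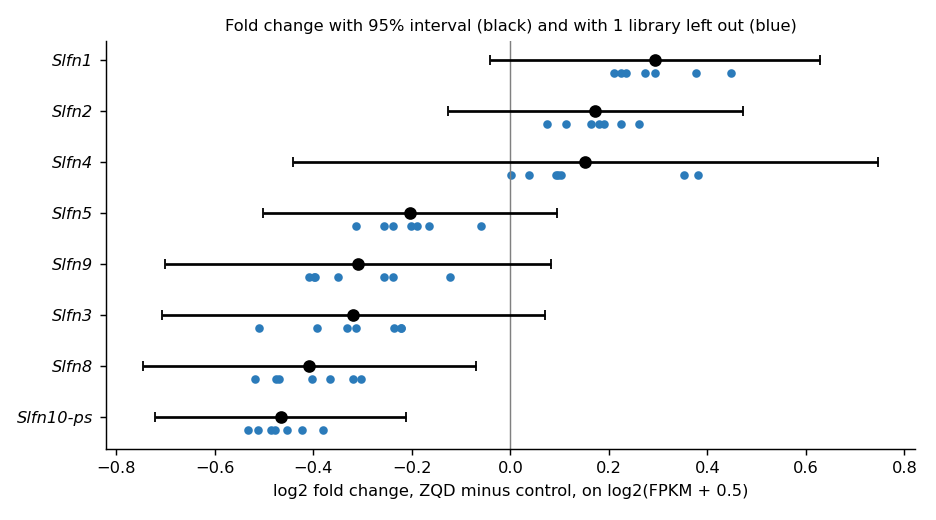
Log2 fold change of each Schlafen gene (x axis, ZQD minus control on log2(FPKM + 0.5)), with the 95% interval from limma in black and, in blue, the 7 values with 1 library left out. Among the members the interval leaves out 0 only for Slfn8, and no value with a library left out changes sign.

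The size and the make-up of the Schlafen transcript pool were described for each library. The summed FPKM of the 7 members was 143.8, 184.4, 152.2 and 167.5 in the controls and 157.9, 147.3 and 149.8 in the ZQD libraries, which all lay inside the control range. The long members made up 53.0%, 54.3%, 51.5% and 58.4% of that sum in the controls and 50.4%, 39.6% and 48.3% in the ZQD libraries. Every ZQD library was thus below every control, with ZQD 2 the lowest. The short members Slfn1 and Slfn2 made up 34.0%, 38.3%, 39.7% and 33.7% in the controls and 40.7%, 49.8% and 42.9% in the ZQD libraries, each above every control. Slfn8 alone went from 19.4%, 20.8%, 18.1% and 20.7% of the sum to 17.6%, 13.95% and 15.8%, again without overlap. In every other member the shares of the groups overlapped, such as Slfn9 at 25.3% to 30.3% in the controls and 18.3% to 26.9% in the ZQD libraries. Taken singly, the short members overlapped too, Slfn1 at 4.65% to 5.90% against 5.87% to 8.44% and Slfn2 at 28.1% to 33.9% against 33.0% to 41.4%. The intermediate members were at 3.55% to 4.07% against 2.63% to 4.29% (Slfn3) and 3.45% to 9.38% against 4.56% to 7.76% (Slfn4). The long and short shares are parts of the same sum, so their differences are not independent. No matching figure over all genes stands beside these shares. A share within a library cancels a factor that scales all its genes alike, but not a difference that acts on genes unequally. The part of the cell make-up of the libraries in these shares was not tested. These shares were formed with the fold changes known and are a description without a test, and the margin between the closest libraries was about 1 percentage point for the long and for the short members.

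**Figure D4:**
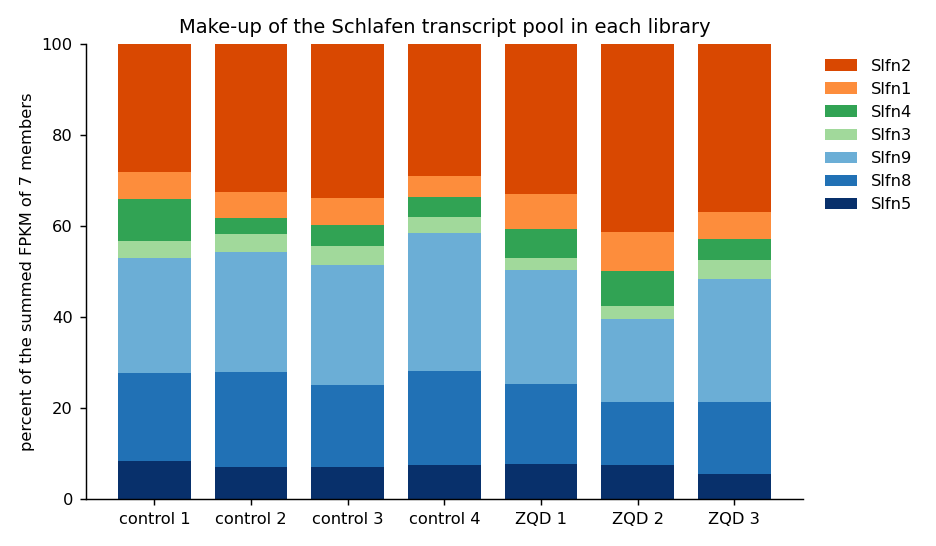
Percent of the summed FPKM of the 7 members (y axis) taken by each gene in each library (x axis). Blue marks the long, green the intermediate and orange the short members. The blue part reaches 51.5% to 58.4% in the controls and 39.6% to 50.4% in the ZQD libraries.

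Members also differed in how they varied across single libraries. Likeness was measured as the root mean square difference between 2 log2(FPKM + 0.5) profiles over the 7 libraries, each centred on its own mean, so that 0 means an identical shape. The nearest pair of members was Slfn8 with Slfn9 at 0.132, followed by Slfn1 with Slfn2 at 0.190. The farthest was Slfn3 with Slfn4 at 0.604, although these genes are neighbours in the cluster. Slfn8 and Slfn9 share sequence in part, as given above, and the part of that in their likeness was not tested.

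Among 11124 candidate genes, the profile most like that of Slfn8 was that of Ddx58, the gene of the cytosolic RNA sensor RIG-I, at 0.060. Next came Ifi35, an interferon-induced gene, at 0.094 and Irf9, the DNA-binding subunit of the interferon-activated complex ISGF3, at 0.09997. Ddx58 was at 25.6, 33.7, 23.5 and 30.9 FPKM in the controls and at 23.2, 18.6 and 19.05 in the ZQD libraries. Like Slfn8 it was highest in control 2 and control 4 and lowest in ZQD 2 and ZQD 3. The genes nearest to Slfn2 were Trmt6 at 0.054, Thg1l at 0.055 and Dld at 0.058. Trmt6 and Thg1l encode enzymes that modify transfer RNA, and Dld a mitochondrial dehydrogenase. All 3 shared with Slfn2 its lowest value in control 1.

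The other members had neighbours of mixed kinds. Slfn1 was nearest to mt-Co1, a mitochondrially encoded subunit of cytochrome c oxidase, at 0.085, then to Pex13 at 0.087 and Rhod at 0.089. Its profile thus ran with a gene of the mitochondrial set whose share of reads separated the groups, and the part of that in the level of Slfn1 was not tested. Slfn5 was nearest to Kbtbd7 at 0.073, Nat9 at 0.079 and Tctex1d2 at 0.079. Slfn3 was nearest to Rpl31-ps8 at 0.074, Ttll3 at 0.076 and Nkrf at 0.081. Slfn9 had more distant neighbours, with Zkscan6 at 0.10002, Umps at 0.108 and Gtf2h3 at 0.115. Slfn4 had the most distant, with Dmpk at 0.159, Osmr at 0.163 and Crip1 at 0.172. With 7 libraries and many candidates some genes lie near any profile, so these names are a description.

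**Figure D5:**
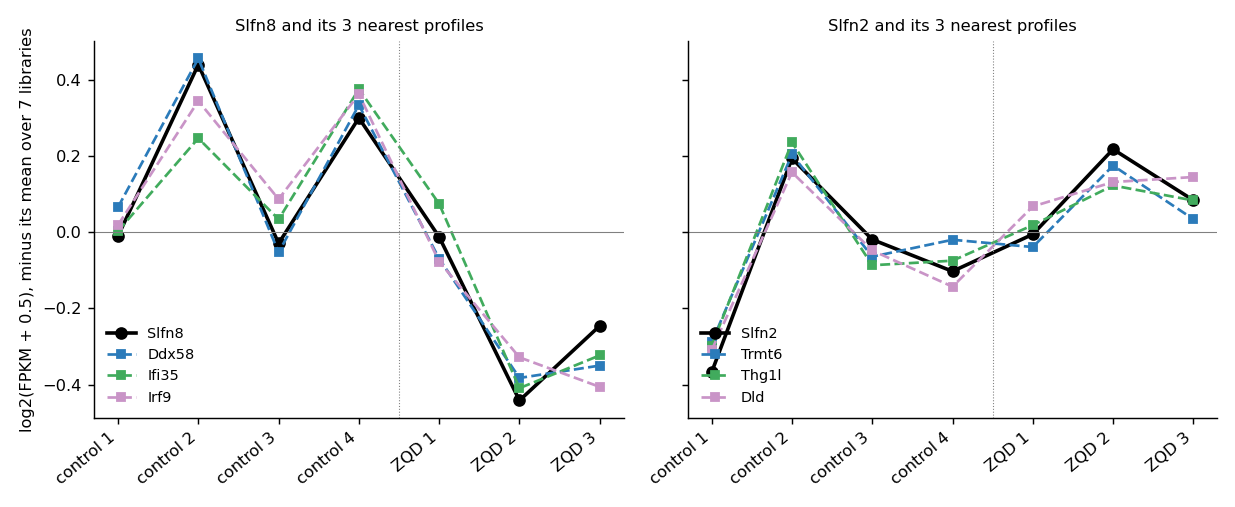
Centred log2(FPKM + 0.5) (y axis) of Slfn8 and of Slfn2 (black) and of the 3 genes with the most similar profile to each (colours) over the 7 libraries (x axis, dotted line between control and ZQD). Slfn8, Ddx58, Ifi35 and Irf9 are high in control 2 and control 4 and low in ZQD 2 and ZQD 3, and the Slfn2 set is lowest in control 1.

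The interferon system that regulates several Schlafen genes was described with lists of its ligands, receptors, signalling proteins, sensors and effectors. No gene of these lists had an adjusted p under 0.05 by limma or edgeR, whereas DESeq2 called some, as given for each list, so those calls depended on the tool. The lists were chosen with earlier results of these data known. Of the interferon-stimulated effectors, 26 of 27 were lower on average in ZQD tumours, 24 at an unadjusted limma p under 0.05, and 18 had all ZQD libraries below all controls. Over all tested genes these shares were 58.2%, 10.3% and 9.84%. DESeq2 called 17 of the 27, all lower, among them Ifit3b (adjusted p = 3.0e-05), Ifit3, Isg15 and Bst2. It called 3.85% of all genes. The median log2 fold change of the list was -0.80, where that of the Schlafen members was -0.20. Ifit3b, a gene of the antiviral IFIT family, was at 14.3 ± 5.48 FPKM (SD, n = 4) in the controls and 4.88 ± 1.10 (SD, n = 3) in the ZQD group, a log2 fold change of -1.40. Isg15, a ubiquitin-like modifier, had a log2 fold change of -0.999, Ifit3 one of -1.31 and Bst2, the tether of budding viruses, one of -0.56. The largest member change, -0.41 for Slfn8, was thus smaller than those of these 4 effectors, without a test of the difference.

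Of 11 tested genes of type I interferon signalling, 9 were lower on average and 2 higher, with 6 lower at an unadjusted p under 0.05 and a median log2 fold change of -0.24. DESeq2 called 4 of them, all lower, among them Usp18, Irf7 and Socs1. Over all tested genes 58.2% were lower, 10.3% at an unadjusted limma p under 0.05, and DESeq2 called 3.85%. The ligand genes Ifnb1 and Ifna4 were below the filter. Irf7, the regulator that amplifies the interferon response, was at 37.3 ± 8.55 FPKM (SD, n = 4) and 19.4 ± 4.49 (SD, n = 3), a log2 fold change of -0.92. Usp18, a feedback inhibitor of the receptor, had a log2 fold change of -1.08, the signal transducer Stat2 one of -0.45 and the receptor kinase Jak1 one of -0.17. Of 11 genes of type II interferon signalling, 5 were higher and 6 lower, and the median log2 fold change was -0.018. In that list DESeq2 called 1, Socs1, against 3.85% of all genes. The receptor gene Ifngr1 had a log2 fold change of 0.42, which was 0.27 without control 4, its lowest library. The feedback inhibitor Socs1 had one of -0.53, the transcription factor Irf1 one of -0.21 and the kinase Jak2 one of -0.078.

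Of 9 measured nucleic acid sensors, 8 were lower on average and 1 was higher, and the median log2 fold change was -0.31. Over all tested genes 58.2% were lower. DESeq2 called 2 of the sensors, Dhx58 lower and Tlr7 higher, against 3.85% of all genes. Ddx58 was at 28.4 ± 4.69 FPKM (SD, n = 4) and 20.3 ± 2.56 (SD, n = 3), a log2 fold change of -0.47, and its relative Dhx58 had one of -0.77. Tlr7, an endosomal RNA receptor of myeloid and B cells, was the exception with 0.59. Tmem173, the gene of STING, had a log2 fold change of -0.046, and its sign turned to 0.0071 when mitochondrially encoded genes were left out of the scale. Because Schlafen proteins act on transfer RNA, 6 measured genes of its processing and cleavage were read as well. Of these 2 were higher and 4 lower on average, 0 at an unadjusted limma p under 0.05, with a median of -0.14. Over all tested genes 10.3% were lower and 5.21% higher at that level. Rnh1, the ribonuclease inhibitor, had a log2 fold change of -0.17, the tRNA 3′ nuclease Elac2 one of -0.24, and the methyltransferases Trmt2a and Nsun2 had -0.18 and -0.11.

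Of the rows with a Schlafen symbol that are no members, only Slfn10-ps, a pseudogene between Slfn8 and Slfn2, passed the filter. It was at 5.13, 4.48, 5.49 and 4.86 FPKM in the controls and at 3.57, 3.01 and 3.84 FPKM in the ZQD libraries. All ZQD libraries lay below all controls, which was so in no member and in 9.84% of all genes. The means were 4.99 ± 0.427 FPKM (SD, n = 4) and 3.48 ± 0.424 (SD, n = 3). The log2 fold change was -0.47 (SE 0.112, 95% interval -0.72 to -0.21), with a limma adjusted p of 0.161, an edgeR adjusted p of 0.177 and a DESeq2 adjusted p of 0.0264, so the call depended on the tool. Of its 50-base windows 19.7% occur in another Schlafen gene, and 7.84% of its 100-base windows do, so part of its reads is uncertain, and the read length that would set how many is unknown. Slfn14, a ribosome-associated nuclease of red cell and platelet precursors, did not exceed 4 reads in a library, and the antisense transcript Slfn5os did not exceed 1. Slfnl1 was listed at 0 in 6 libraries and at 0.046 FPKM in ZQD 1. These 3 were below the filter, and with no filter on low values none had an unadjusted limma p under 0.05.

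Genes that flank the cluster were read for comparison. Fndc8, Unc45b and Rasl10b were below the filter. Nle1, a ribosome assembly gene, had a log2 fold change of -0.34, and Ap2b1, an endocytic adaptor gene, had one of -0.35. Ap2b1 had all ZQD libraries below all controls, as had 9.84% of all genes. Lower averages in ZQD tumours occurred in 58.2% of all tested genes, and neither Nle1 nor Ap2b1 had a limma adjusted p under 0.05. Slfn1, Slfn2 and Slfn4 inside the cluster were higher, and a part of position was not tested.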

How the data were processed

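Poly(A)-selected paired-end RNA-seq of tumour tissue was deposited as 1 table of FPKM per library by the authors, and gene counts were deposited for some libraries. HISAT2, featureCounts, Subread and DESeq2 appear in the submitters' processing notes; no label or header read here gives their versions, the genome build, strandedness or read length. Groups came from the sample titles. FPKM divides by all counted reads, mitochondrial ones included. Gene lengths were recovered from FPKM and counts for 27421 genes, and the reads rebuilt from FPKM lay within 0.05 of a whole number. Members were tested in a fit of all genes that reached 0.5 FPKM in 3 or more libraries (limma 3.58.1 with variance trend, R 4.3.3, two-sided, pseudocount 0.5, Benjamini-Hochberg over 14838 genes); fold changes on this scale understate those of low genes. edgeR 4.0.16 and DESeq2 1.42.0 were alternatives on rebuilt reads (1733 genes had no adjusted p in DESeq2), beside other scalings, filters, weights, a replicate block and leaving out each library. The fits were tested on simulated data. Members and lists were chosen with earlier results of these data known. Genes named were the members, other Slfn rows, the 2 of smallest p and 2 of highest level in each list, genes flanking the cluster and the 3 nearest profiles; 1 gene under this rule is not reported here. Sequences are RefSeq windows of GRCm38.p6, in which all 7 members matched; shared windows were counted in GENCODE M21 transcripts.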

Additional observations from a re-analysis of the deposited data

Results flagged for a closer look

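In the controls, Slfn4 was at 13.4943 FPKM in control 1, far above the other 3 control libraries. The gap to the next library was 0.875 of the group's range, above Dixon's 95% critical value for 4 samples. Ifngr1, the gene of the interferon gamma receptor, was at 17.3613 FPKM in control 4, below the other controls by 0.934 of the range. These were 2 of 31 genes examined in this way, and chance alone marks about 1 in 20 groups.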

How the results depend on the processing

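No member had an adjusted p under 0.05 in any of the 20 alternatives to the limma fit described, and no member's log2 fold change changed sign. The count of members lower at an unadjusted p under 0.05 was 1; it was 4 (Slfn3, Slfn5, Slfn8, Slfn9) on the TPM scale, which moved the median log2 fold change of all genes from -0.043 to -0.15 and the split of genes at an unadjusted p under 0.05 from 773 higher and 1533 lower to 377 and 2861. Scaling by median of ratios gave 1097 higher and 1082 lower. Members with all ZQD libraries below all controls numbered 0, and 1 on the TPM scale. With 1 library left out, the first count ranged from 0 (without control 2, control 4 or ZQD 2) to 2 (without ZQD 1), and the second from 0 to 1 (without control 3, ZQD 1 or ZQD 3). Without ZQD 3 the 1 lower member was Slfn3 in place of Slfn8, and members higher at an unadjusted p under 0.05 numbered 1 (Slfn1) without control 2 or ZQD 3, against 0 with all libraries. Over all genes, the first count with 1 library left out ranged from 1102 of 14640 (without ZQD 2) to 1480 of 14638 (without ZQD 3). The second count was not run for pseudocounts, filters or tools. Over all genes it was taken only on FPKM with all libraries (9.84%), so its moves among the members have no share beside them. Leaving out a library also makes the second count easier to reach. Over all genes 0 had an adjusted p under 0.05, and 504 did with DESeq2; the cause was not tested. Deviations from the group mean correlated at -0.150 to 0.252 between same-numbered libraries and at -0.295 to 0.255 between the others. These few correlations showed no pairing by replicate number and cannot exclude one. With a replicate block in limma 1 gene had an adjusted p under 0.05 and 0 members were lower at an unadjusted p under 0.05. Tmem173 turned from -0.046 to 0.0071 without mitochondrially encoded genes and ranged from -0.17 to 0.062 with 1 library left out (0.051 without control 1). Depth did not limit the members, and 7 libraries limit the precision.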

Other observations

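The 3 libraries with the highest level of Slfn4, the member known from myeloid cells, were control 1, ZQD 2 and ZQD 1. The same 3 libraries had the highest levels of Ccr2 and Ly6c2, receptor and surface marker of inflammatory monocytes. Ly6c2 was at 8.96 FPKM in control 1, 12.1 in ZQD 1 and 10.6 in ZQD 2, and at 4.53 to 6.80 FPKM in the other libraries. Ccr2 was at 6.11 FPKM in control 1, 9.999 in ZQD 1 and 7.51 in ZQD 2, and at 2.22 to 5.595 FPKM in the others. Both markers were singled out after their values were seen, and the relation to Slfn4 was not tested. Of the 11 monocyte and macrophage markers, none of the others had its 3 highest levels in these libraries. Adgre1, Cd68 and Fcgr1 were at their lowest in ZQD 1, at 11.5, 219.3 and 13.5 FPKM.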
